A study of Mus musculus with 2 samples.

Results

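The cells described here, taken to be splenocytes of infected mice, carried transcripts of the neutrophil granule program. A barcode of the first deposited run was selected when its unique molecular identifiers (UMIs, each standing for 1 captured transcript) for Mpo, Elane and Prtn3 added up to at least 5, with no UMI of the T cell gene Cd3e or the B cell gene Cd79a and fewer than 5 UMIs of the plasma cell gene Mzb1. The rule selected 172 cells, 89 of 14821 in PEP-WT and 83 of 8576 in PEP-619WW. It was written to find granulocyte-monocyte progenitors, and it used measured values, so the levels of those 6 genes are given as a description. PEP-WT mice are C57BL/6 mice with the normal allele of Ptpn22 (ENSMUSG00000027843, chr3:103859795-103912247 of GRCm38, plus strand), the gene of the phosphatase PEP. PEP-619WW mice are homozygous for an arginine-to-tryptophan change at residue 619 of PEP, made by CRISPR/Cas9 on the same background, which is the mouse counterpart of a human autoimmunity allele. Both groups had been infected with LCMV-cl13, a persisting variant of the arenavirus LCMV (lymphocytic choriomeningitis virus), and spleens were taken on day 8. Live CD45+ cells of 4 to 5 mice were pooled into 1 library per genotype, so there is no replicate error, no test was made, and every interval below is a 95% interval that covers counting error only. The sample labels also name liver, tumor-infiltrating cells and a human T cell line, which differ from the mouse splenocytes of the protocol text and the study's methods. Each genotype has a first and a second deposited run, and the cell numbers and median genes per cell in the study's methods are those of the second run, not of the one used here. That the tissue, infection, day and pooling given above hold for run 1 is therefore assumed. In run 1 at least 3 UMIs of the B cell genes Cd79a, Cd79b and Ms4a1 were found in 58.6% (PEP-WT) and 52.6% (PEP-619WW) of all barcodes, and 0 barcodes of either had 3 UMIs of the melanocyte genes Pmel, Mlana and Dct or of the hepatocyte genes Alb, Apoa1 and Ttr. In run 2 the B cell shares were 0.451% and 6.70%, and the melanocyte shares 3.20% and 0.299%. The amino acid change cannot be read from gene counts, so the genotype of each library rests on its label.

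In bone marrow, granulocyte-monocyte progenitors divide and then commit to either neutrophils or monocytes. During the promyelocyte stage they fill the primary (azurophil) granules with myeloperoxidase and the serine proteases neutrophil elastase, proteinase 3 and cathepsin G, and the transcripts of these proteins fall to near 0 in mature cells. Infection raises the demand for phagocytes, and in emergency myelopoiesis progenitors expand and can also be found outside the marrow, in the spleen. The transcription factors Irf8 and Klf4 are associated with the monocyte branch, and Gfi1 and Cebpe with the neutrophil branch.

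Mpo encodes myeloperoxidase (ENSMUSG00000009350, chr11:87793581-87804413, plus strand, GENCODE M21 on GRCm38). Elane encodes neutrophil elastase (ENSMUSG00000020125, chr10:79886247-79888215, plus strand), and Prtn3, the gene of proteinase 3, lies beside it (ENSMUSG00000057729, chr10:79874476-79883174, plus strand). Ctsg, the gene of cathepsin G, was not used by the rule (ENSMUSG00000040314, chr14:56099881-56102574, minus strand). The 250 bases before the start of each gene are given from RefSeq on GRCm38.p6. Mpo, Elane and Prtn3 form the sum of the rule and Ctsg is a further marker gene. No cell had to express all 4. RefSeq and GENCODE place the outer start of the 3 genes of the rule at different bases. Capitals mark AGGAAGT, a sequence with the GGAA core that factors of the ETS family such as PU.1 (Spi1) recognize.
Mpo, chr11:87793534-87793783, plus strand: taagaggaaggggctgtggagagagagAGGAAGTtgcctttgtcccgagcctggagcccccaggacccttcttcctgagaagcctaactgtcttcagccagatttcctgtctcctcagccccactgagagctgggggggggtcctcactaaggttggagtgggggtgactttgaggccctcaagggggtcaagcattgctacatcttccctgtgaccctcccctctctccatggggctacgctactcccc
Elane, chr10:79886062-79886311, plus strand: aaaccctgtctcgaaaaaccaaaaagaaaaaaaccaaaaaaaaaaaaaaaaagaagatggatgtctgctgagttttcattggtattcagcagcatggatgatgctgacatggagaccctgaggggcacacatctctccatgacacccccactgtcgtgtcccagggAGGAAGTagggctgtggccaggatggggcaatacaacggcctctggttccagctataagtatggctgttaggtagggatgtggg
Prtn3, chr10:79879417-79879666, plus strand: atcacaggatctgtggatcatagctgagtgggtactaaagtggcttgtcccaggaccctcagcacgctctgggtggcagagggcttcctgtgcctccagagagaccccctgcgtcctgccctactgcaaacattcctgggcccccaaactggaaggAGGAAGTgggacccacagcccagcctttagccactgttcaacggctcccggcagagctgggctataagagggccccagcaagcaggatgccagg
Ctsg, chr14:56102575-56102824, minus strand: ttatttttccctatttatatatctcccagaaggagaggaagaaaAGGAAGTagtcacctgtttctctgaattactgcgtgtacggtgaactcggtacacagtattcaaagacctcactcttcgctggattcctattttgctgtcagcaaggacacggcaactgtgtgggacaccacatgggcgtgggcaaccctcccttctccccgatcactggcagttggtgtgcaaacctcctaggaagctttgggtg
Each of the 4 sequences held AGGAAGT once, on the strand of the gene, beginning 223 bases before the start of Mpo, 84 bases before Elane, 94 bases before Prtn3 and 206 bases before Ctsg. On either strand it was present in 7.69% of 32851 RefSeq windows of the same length. The letters were chosen after the 4 sequences had been read, and a match is a description, not a bound site. Spi1 itself, the gene of PU.1, was at 376 UMIs per 1000000 UMIs (CPM) in the selected PEP-WT cells and 394 CPM in the PEP-619WW cells, with a UMI in 95.5% and 95.2% of them.

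The 4 marker genes were spread unevenly over the cells. Prtn3 was found in every selected cell, with 1 to 333 UMIs per cell (median 15) in PEP-WT and 2 to 282 (median 10) in PEP-619WW. Elane was found in 68.5% of the PEP-WT cells, with a median of 2 and a highest count of 234 UMIs, and in 62.7% of the PEP-619WW cells, with a median of 1 and a highest count of 300 UMIs. Mpo was found in 47 PEP-WT cells (52.8%, 41.9 to 63.5%), with 0 to 143 UMIs and a median of 1, and in 20 PEP-619WW cells (24.1%, 15.4 to 34.7%), with 0 to 150 UMIs and a median of 0. The highest counts of both libraries lay in the same range, and more of the PEP-619WW cells were at 0. Ctsg, which took no part in the rule, was found in 67.4% (56.7 to 77.0%) and 50.6% (39.4 to 61.8%) of the cells, with medians of 5 and 1 UMIs and highest counts of 129 and 291 UMIs. B cells served as a background that should lack these genes. At median depths of 2384 and 2976 UMIs, Mpo was found in 0.651% and 0.758% of PEP-WT and PEP-619WW B cells, Ctsg in 0.525% and 1.01%, Elane in 0.308% and 0.463%, and Prtn3 in 1.27% and 1.89%. The selected cells were deeper, with medians of 15789 and 14616 UMIs.

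**Figure D1:**
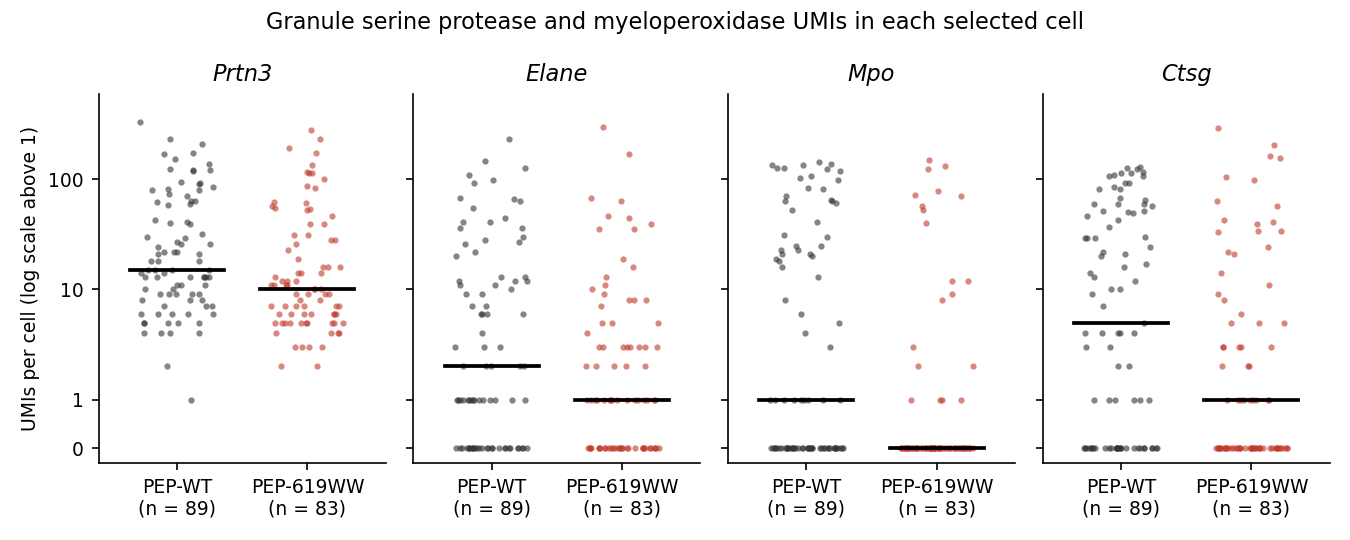
UMIs of Prtn3, Elane, Mpo and Ctsg in each of the 89 PEP-WT and 83 PEP-619WW cells, on an axis that is logarithmic above 1 UMI; 1 point is 1 cell and the black line is the median. Prtn3 is present in every cell, while the Mpo median is 1 UMI in PEP-WT and 0 in PEP-619WW.

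The label of granulocyte-monocyte progenitors was met by only some of the cells. Ms4a3, a gene of granulocyte-monocyte progenitors and their close progeny, had a UMI in 77.5% of the PEP-WT cells and in 48.2% of those of PEP-619WW. Prss57, which encodes another protease of the primary granules, had one in 48.3% and 22.9%. Cd34 was found in 22.5% (14.3 to 32.6%) and 9.64% (4.25 to 18.1%), Kit in 25.8% (17.1 to 36.2%) and 13.3% (6.81 to 22.5%), and Flt3 in 10.1% and 7.23% of the cells. In B cells the shares were 0.0904% and 0% for Cd34, the latter being 0 of 2376 cells (0 to 0.155%), and 0.344% and 0.421% for Kit. By contrast, Ly6c2, which encodes the monocyte surface protein Ly6C2, was found in 91.0% and 100% of them, at 2707 and 3730 CPM, and Irf8 in 83.1% and 86.7%. Ly6c2 also had a UMI in 51.5% of the B cells of both libraries, at 607 and 513 CPM, so that its level and not its presence set the selected cells apart. The cells are therefore named by the rule, as selected cells, and not as granulocyte-monocyte progenitors.

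The sum of Mpo, Elane and Prtn3 ranged from 5 to 673 in PEP-WT, with a median of 24 UMIs, and from 5 to 684 in PEP-619WW, with a median of 11. Sums of 5 to 10 made up 20 PEP-WT cells (22.5%) and 39 PEP-619WW cells (47.0%), and sums of at least 100 made up 21 (23.6%) and 12 (14.5%). Just inside the limit, 9 PEP-WT and 13 PEP-619WW cells had a sum of 5, with Ly6c2 at 3769 and 3851 CPM and a Mpo UMI in 0 and 1 of them. Just outside it, 14 and 12 barcodes had a sum of 4, with Ly6c2 at 2880 and 2810 CPM and a Mpo UMI in 2 and 3. Barcodes on both sides of the limit had high Ly6c2 and seldom Mpo.

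The selected cells made up 0.600% of PEP-WT barcodes (0.482 to 0.739%) and 0.968% of PEP-619WW barcodes (0.772 to 1.20%), which was 0.367 percentage points higher in PEP-619WW (0.135 to 0.624). Among barcodes that met the 3 exclusions, the shares were 2.29% of 3885 and 3.48% of 2384. With every barcode thinned to 1000 UMIs, which left 13843 and 7403 barcodes, 36 and 18 were selected, or 0.260% and 0.243%. The difference was then -0.0169 points, with an interval (-0.151 to 0.141) that held both signs. The exclusions removed 46 of 135 PEP-WT barcodes with a sum of at least 5 (34.1%) and 76 of 159 PEP-619WW barcodes (47.8%), and 17 and 7 of those removed had at least 5 Mpo UMIs. A single Cd79a UMI was the only ground for removing 10 and 15 barcodes. Immunoglobulin transcripts, which free RNA can carry into any droplet, made up 7.44% and 10.8% of the UMIs of the other barcodes. They are not among the genes of the exclusions, and the part of free RNA of Cd3e, Cd79a or Mzb1 in these removals was not tested. A smaller number of such cells and less of the transcripts per cell cannot be told apart by a rule with a fixed number of UMIs.

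After the values had been seen, the cells were divided by Mpo. Mpo-high cells had at least 5 Mpo UMIs, Mpo-low cells 1 to 4 and Mpo-negative cells 0. Cells with at least 5 UMIs of the secondary granule genes Ltf, Camp and Ngp, or at least 50 of the basophil genes Mcpt8, Prss34 and Cpa3 or of the eosinophil genes Prg2 and Epx, were set apart first. Mpo-high cells numbered 31 in PEP-WT (34.8% of the selected cells, 25.0 to 45.7%) and 13 in PEP-619WW (15.7%, 8.61 to 25.3%). Mpo-negative cells numbered 37 (41.6%, 31.2 to 52.5%) and 59 (71.1%, 60.1 to 80.5%). There were 11 and 7 Mpo-low cells. The level of Mpo in Mpo-high cells was 3206 CPM (3069 to 3347) in PEP-WT, with 5 to 143 UMIs per cell, and 1973 CPM (1840 to 2113) in PEP-619WW, with 8 to 150. As a share of all barcodes, Mpo-high cells made up 0.209% of PEP-WT and 0.152% of PEP-619WW, a difference of -0.0576 points whose interval (-0.165 to 0.0665) included 0. Mpo-negative cells made up 0.250% and 0.688%, a difference of 0.438 points (0.258 to 0.648). Mpo is a gene of the rule, so these shares are a description, and the subsets were not counted at equal depth, at which the share of selected cells was 0.260% and 0.243%. Median depth was 21865 and 31012 UMIs in Mpo-high cells, and 12439 and 14025 UMIs in Mpo-negative cells.

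**Figure D2:**
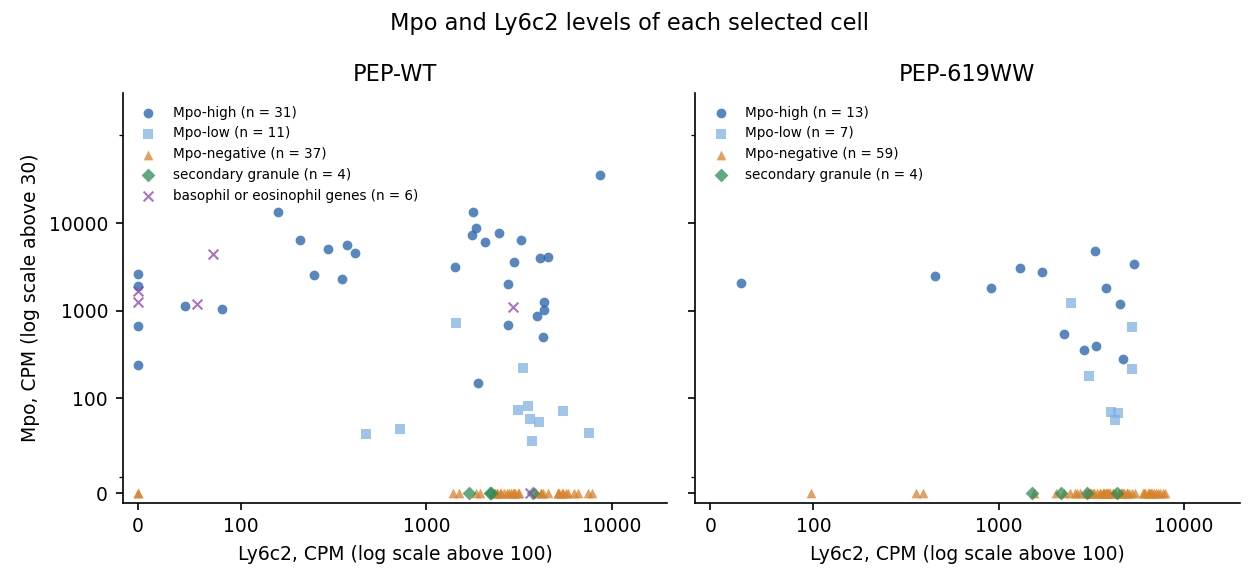
Level of Mpo against that of Ly6c2 in each selected cell of PEP-WT (left) and PEP-619WW (right), both in CPM on axes that are logarithmic above a small value; symbols mark the subsets. The PEP-WT Mpo-high cells fall into 13 cells with Ly6c2 between 0 and 412 CPM and 18 cells with 1426 CPM or more, and most Mpo-negative cells of both libraries have high Ly6c2.

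Among Mpo-high cells the plot of Mpo against Ly6c2 showed a gap, and a limit of 1000 CPM of Ly6c2 was set after it had been seen. Of the PEP-WT Mpo-high cells, 13 of 31 (41.9%, 24.5 to 60.9%) lay below it, between 0 and 412 CPM, and the other 18 lay between 1426 and 8645 CPM. Of the PEP-619WW Mpo-high cells, 3 of 13 (23.1%, 5.04 to 53.8%) lay below it, at 29.5, 451 and 905 CPM, and 10 between 1304 and 5393 CPM. The PEP-619WW library had no wide gap, and its share rests on 3 cells. These cells made up 0.0877% of all PEP-WT barcodes (0.0467 to 0.150%) and 0.0350% of PEP-619WW barcodes (0.00722 to 0.102%).

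Cd34, a surface sialomucin of progenitors, was at 302 CPM in 12 of the 13 PEP-WT cells and at 288 CPM in 3 of the 3 PEP-619WW cells. In the Mpo-high cells with more Ly6c2 it was at 27.5 CPM (4 of 18 cells) and 34.4 CPM (4 of 10 cells). Sox4, a transcription factor gene of early progenitors, was at 159 and 96.1 CPM below the limit, and at 37.4 and 9.38 CPM above it. Adgrg1, an adhesion receptor gene of stem and progenitor cells, was at 196 and 117 CPM below, and at 12.5 and 3.12 CPM above. Both libraries thus had Cd34, Sox4 and Adgrg1 at higher levels in the cells with little Ly6c2. Kit, the receptor of stem cell factor, differed less, with 106 and 107 CPM below the limit and 64.9 and 62.5 CPM above, with overlapping intervals. Flt3, a cytokine receptor gene of early progenitors, was at 12.2 and 0 CPM below (3 and 0 UMIs, 0 of 3 cells in PEP-619WW). Above the limit it was at 14.98 and 9.38 CPM (6 and 3 UMIs), with overlapping intervals, and these counts are too few to order the groups. The PEP-WT cells with little Ly6c2 also had Cpa3 (73.4 CPM, 5 of 13 cells) and Gata2 (48.9 CPM, 4 of 13 cells), genes of the basophil and mast cell list. Above the limit these were at 0 and 2.50 CPM in PEP-WT. In PEP-619WW Cpa3 was at 0 CPM on both sides, and Gata2 at 10.7 CPM below and 3.12 CPM above.

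Some genes of the monocyte branch had the opposite order. Irf8 was at 118 CPM in the Ly6c2-low cells of PEP-WT and 42.7 CPM in those of PEP-619WW, and at 552 and 466 CPM in the Mpo-high cells above the limit. Ly86, which encodes the MD-1 partner of an endotoxin receptor homolog, was at 8.15 and 21.4 CPM below and at 247 and 222 CPM above. F13a1, a monocyte gene for the coagulation factor XIII A chain, was at 16.3 and 10.7 CPM below and at 232 and 241 CPM above. Lyz2, the lysozyme gene of phagocytes and no member of the monocyte-branch list, was at 151 and 21.4 CPM below and at 554 and 1131 CPM above. Above the limit 1 cell held 84 of the 222 PEP-WT UMIs and 1 cell 146 of the 362 PEP-619WW UMIs. Median Lyz2 UMIs per cell were 2 below and 3.5 above in PEP-WT, and 0 and 8 in PEP-619WW. Other genes of the branch did not separate the cells in both libraries. Csf1r was at 24.4 and 21.4 CPM below and at 44.9 and 50 CPM above, with overlapping intervals in both libraries. Ccr2 was at 16.3 and 42.7 CPM below and at 69.9 and 87.5 CPM above, with intervals that overlapped in PEP-619WW. Zeb2 was at 143 and 203 CPM below and at 202 and 187 CPM above, with overlapping intervals and, in PEP-619WW, the reverse order. Elane, of the rule, was at 1035 and 694 CPM below and 2878 and 2166 CPM above, while Ctsg was at 3073 and 2786 CPM below and at 2734 and 3303 CPM above.

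The neutrophil-branch factors were sparse. Gfi1 was at 41.8 CPM in PEP-WT Mpo-high cells (27 UMIs in 14 of 31 cells) and at 12.1 CPM in PEP-619WW Mpo-high cells (5 UMIs in 3 of 13 cells). Cebpe was at 63.5 and 36.3 CPM, and Cebpa, which is needed to form granulocyte-monocyte progenitors, was at 54.2 and 60.4 CPM in the Mpo-high cells. In Mpo-negative cells Gfi1 had 2 UMIs in PEP-WT and 0 in PEP-619WW. Gstm1, of the neutrophil-branch list, was at 65.2 and 21.4 CPM in the Mpo-high cells with little Ly6c2. In those with more it was at 292 and 344 CPM, with intervals apart in both libraries. Fcnb was at 0 CPM in both libraries below the limit and at 25.0 and 25 CPM above. Gfi1 had the opposite order, with 65.2 and 32.0 CPM below and 27.5 and 6.25 CPM above. The intervals of Fcnb, Gfi1, Cebpe and Cebpa overlapped in both libraries.

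Mpo-high and Mpo-negative cells were compared within each library, over 1631 genes with at least 100 UMIs in these cells of both libraries together, and a gene was counted when the ratio of its CPM was at least 2-fold in the same direction in both libraries. By this rule 109 genes (6.68%) were higher in Mpo-high cells and 173 (10.6%) were lower. Mpo itself made the split and Elane and Prtn3 made the selection, so these 3 are no result. Ctsg was at 2862 CPM in the Mpo-high and 77.0 CPM in the Mpo-negative cells of PEP-WT, a log2 ratio of 5.22 (4.77 to 5.71), and at 3186 and 123 CPM in PEP-619WW, a log2 ratio of 4.69 (4.41 to 4.99). Every Mpo-high cell had at least 12 Ctsg UMIs in PEP-WT and at least 33 in PEP-619WW, whereas the highest Mpo-negative cells had 10 and 21. These are raw counts of cells of unequal depth, and the Mpo-low cells were left out. Mpo-low cells had 0 to 57 Ctsg UMIs in PEP-WT and 0 to 39 in PEP-619WW, across the range between. The share of all genes with such a separation was not counted. Myb, a transcription factor gene of dividing progenitors, had log2 ratios of 2.96 and 3.71, and Ms4a3 of 2.85 and 3.32, in PEP-WT and PEP-619WW. The remaining genes with the largest ratios included Serpinb1a, which encodes an inhibitor of the granule proteases (2.81 and 3.67), and the cell cycle kinase gene Cdk6 (2.14 and 1.99). The nucleolin gene Ncl had log2 ratios of 1.91 and 2.24, Nolc1 of 2.06 and 2.72, Gnl3 of 1.961 and 2.64, the spermidine synthase gene Srm of 2.71 and 2.94, the serine synthesis gene Phgdh of 2.03 and 2.67, and the mitochondrial chaperonin gene Hspd1 of 1.86 and 2.72. Med21, a subunit gene of the Mediator complex, had log2 ratios of 1.86 and 1.87.

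Of the genes with the largest ratios toward Mpo-negative cells, Fn1, the fibronectin gene, was at 572 CPM in Mpo-negative and 7.74 CPM in Mpo-high cells of PEP-WT, and at 1206 and 43.5 CPM in PEP-619WW, log2 ratios of -6.21 and -4.79. Of the 7 genes tested of the monocyte-branch list, 1 was at least 2-fold lower in Mpo-high cells of both libraries, with medians of -0.996 and -0.73. Lyz2 was at 9832 and 401 CPM in PEP-WT and at 13701.5 and 879.9 CPM in PEP-619WW. Ccr2, the chemokine receptor with which monocytes leave the marrow, had log2 ratios of -3.40 and -3.07. Those of Itgam, the CD11b integrin gene, were -3.83 and -4.57, and those of Fcgr1, which encodes the high-affinity IgG receptor, were -3.11 and -4.47. Further genes were the chemokine gene Ccl6 (-4.47 and -4.61), the lectin gene Lgals3 (-3.39 and -3.22), the calcium-binding protein genes S100a4 (-4.37 and -3.42) and S100a9 (-3.31 and -4.04), the inhibitory receptor gene Pirb (-3.71 and -3.89), Slfn1 (-4.68 and -4.96), Wfdc17 (-4.00 and -5.15) and the complement gene C1qb (-3.98 and -7.58). Ifi207, a gene of the interferon-inducible p200 family, had log2 ratios of -3.10 and -4.84.

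**Figure D3:**
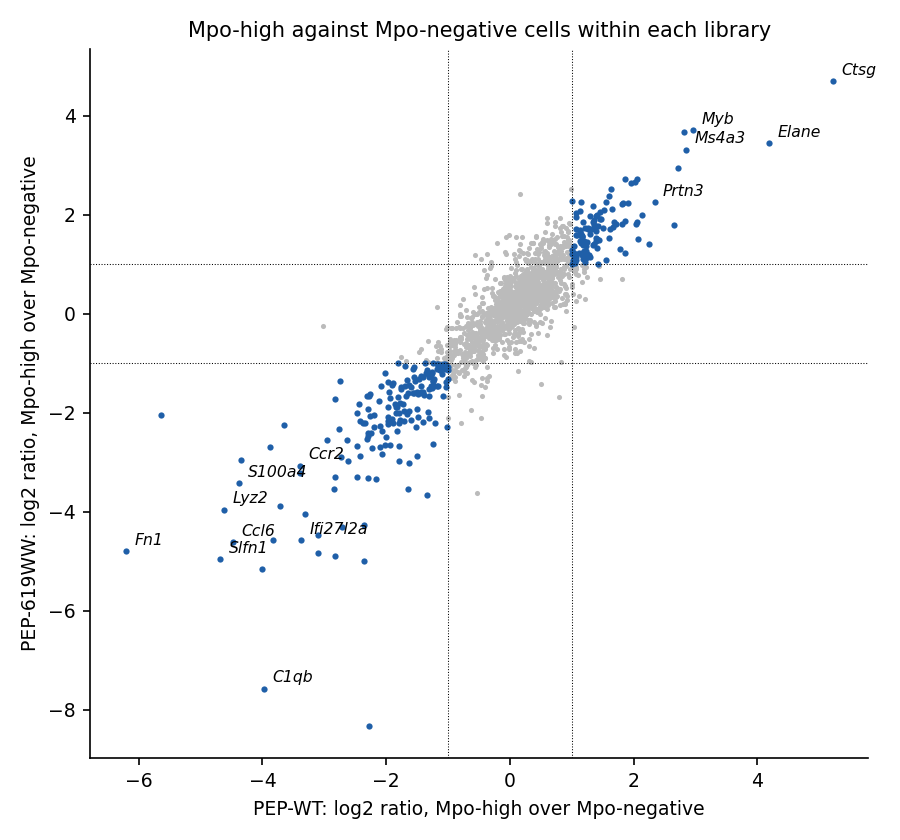
Log2 ratio of CPM in Mpo-high over Mpo-negative cells for each tested gene, in PEP-WT (horizontal) and PEP-619WW (vertical); blue points pass 2-fold in the same direction in both, dotted lines mark 2-fold, and genes without a UMI in one subset (such as Mpo) are not drawn. Ctsg lies at 5.22 and 4.69, and Fn1 at -6.21 and -4.79.

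Gene lists were read against the shares of all genes given above. Of the 10 type I interferon-stimulated genes tested, 7 were at least 2-fold lower in Mpo-high cells of both libraries and 0 higher, with median log2 ratios of -1.59 and -2.16, against 0.13 and 0.22 over all 1631 genes. Ifi27l2a, one of them, was at 2866 CPM in Mpo-negative and 276 CPM in Mpo-high cells of PEP-WT, and at 2015 and 84.6 CPM in PEP-619WW. Of 15 interferon gamma-induced genes, 1 was lower and 0 were higher, with medians of -0.21 and -0.28, a share no larger than that of all genes. Of the 6 genes of MHC class II antigen presentation, 5 were lower in Mpo-high cells (medians -1.63 and -1.54). Of the 9 S-phase genes 1 was higher, with medians of 0.52 and 1.49, and of the 15 genes of endoplasmic reticulum protein folding and secretion 1 was higher, near the share of all genes, with medians of 0.39 and 0.42. Of the 9 G2/M genes 0 passed in both libraries, and their medians of -0.06 in PEP-WT and 1.21 in PEP-619WW differed from each other.

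The 8 cells with secondary granule genes, 4 in each library (4.49% and 4.82% of the selected cells), were chosen by Camp, Ngp and Ltf. In 7 of the cells these genes had 90 to 1427 UMIs together. The remaining cell, of PEP-WT, had 9, and it alone of the 8 had UMIs of the monocyte genes Irf8 and Ccr2 (3 and 15). Cebpe, the factor that drives secondary granule genes and took no part in choosing them, was at 626 CPM in 3 of the 4 PEP-WT cells and at 649 CPM in 4 of the 4 PEP-619WW cells, and S100a8, a calgranulin gene of neutrophils, was at 82215 and 87093 CPM. Each of the 8 had 5 to 46 UMIs of Prtn3 and each had Ms4a3, but none had Mpo. In immature neutrophils Cebpe was at 352 and 295 CPM. Immature neutrophils (here barcodes with at least 10 UMIs of Ltf, Camp and Ngp and the same exclusions) numbered 115 in PEP-WT and 218 in PEP-619WW.

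The 6 cells set apart for basophil or eosinophil genes all came from PEP-WT, with 0 of 83 in PEP-619WW (0 to 4.35%). As shares of all barcodes they were 6 of 14821 and 0 of 8576, a difference of -0.0405 points (-0.0883 to 0.00937) whose interval included 0. Mcpt8, the mast cell protease 8 gene of basophils, ranged from 7 to 356 UMIs in them. Genes that took no part in choosing them were also high, with Ms4a2, a chain of the IgE receptor, at 545 CPM, Gata2 at 447 CPM and Ctsg at 4203 CPM. Of the 6, 1 had 319 UMIs of the eosinophil granule gene Prg2 and 21 of Epx. Mpo was found in 5 of the 6, at a median of 25.5 UMIs.

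The summed levels of 7 T cell genes were 36.01 and 25.7 CPM in PEP-WT and PEP-619WW, against 1285 and 1249 CPM in the other barcodes. Those of 6 B cell genes were 30.2 and 27.7 CPM (1427 and 1048 CPM in the other barcodes), of 5 NK cell genes 2.57 and 6.24 CPM (303 and 219), and of 6 dendritic cell genes 5.14 and 10.4 CPM (21.1 and 16.7), with 5 and 4 of these dendritic cell genes, Siglech and Zbtb46 among them, at 0. Plasma cell genes summed to 510 and 1116 CPM, with Sdc1 at 0 and 1 UMI and Tnfrsf17 at 0, against 56796 and 81797 CPM in the other barcodes. The exclusions of Cd3e, Cd79a and Mzb1 did not apply to the other barcodes, so the low sums of T, B and plasma cell genes follow from the rule and are no result. In immature neutrophils, under the same exclusions, these lists summed to 166 and 48.9 CPM (T cell), 31.1 and 30.2 CPM (B cell) and 882 and 1436 CPM (plasma cell). Hemoglobin transcripts made up 0.133% and 0.00527% of the UMIs of the selected cells, and 1.36% and 0.178% of those of the other barcodes. Of the Hbb-bs UMIs of the PEP-WT Mpo-negative cells, 91.2% came from 1 cell. The 5 megakaryocyte genes summed to 153 and 36.8 CPM, above the 41.1 and 15.9 CPM of the other barcodes. The 8 macrophage genes summed to 296 and 800.2 CPM, against 450 and 581 CPM, which was higher than in the other barcodes only in PEP-619WW. The 8 basophil and mast cell genes summed to 1609 and 20.8 CPM, against 70.2 and 71.6 CPM, with 0 and 4 of them at 0 in the selected cells. The 4 eosinophil genes summed to 222 and 2.77 CPM, against 26.2 and 40.5 CPM, with 0 and 3 of them at 0. The complement genes C1qa, C1qb and C1qc were each at least 2-fold higher in the selected PEP-619WW cells (log2 ratios 1.23, 1.24 and 1.69). Of their UMIs in PEP-WT, the library with the lower level, 73.3%, 46.9% and 42.5% came from 1 cell. They were uneven in PEP-619WW too, where C1qc was found in 19 of 59 Mpo-negative cells, with 35.3% of its UMIs there in 1 cell. The part of these transcripts in the genotype ratios below was not tested.

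Between genotypes, the CPM of each gene over all selected cells was compared for 4104 genes with at least 100 UMIs in both libraries together. At least 2-fold ratios were found for 83 genes (2.02%) toward PEP-619WW and for 49 genes (1.19%) toward PEP-WT. With equal weight for each cell the counts were 82 and 132, so that the order of the directions turned. The same comparison within Mpo-high cells gave 6 of 1639 genes (0.366%) toward PEP-619WW and 12 (0.732%) toward PEP-WT. Within Mpo-negative cells it gave 33 of 2049 (1.61%) and 27 (1.32%). With 1 library per genotype, these are counts of genes past a size, and the libraries differ in the share of Mpo-high cells. For comparison, other barcodes under the same exclusions with at least 3 UMIs of Ly6c2, Ccr2 and F13a1 and few neutrophil transcripts are called Ly6c2+ barcodes. They are not named as monocytes, because T cell genes summed to 1382 and 869 CPM and NK cell genes to 802 and 617 CPM in them, and 65.3% and 48.5% of them had 3 UMIs of the monocyte genes Irf8, Csf1r, Ly86, F13a1 and Ccr2, against 43.6% and 48.7% of B cells.

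Among the 12 genes with the largest ratios toward PEP-619WW, Apoe, the apolipoprotein E gene, was at 178 CPM in PEP-WT (277 UMIs in 40 cells, at most 82 in a cell) and 939 CPM in PEP-619WW (1354 UMIs in 43 cells, at most 184), a log2 ratio of 2.40 (2.21 to 2.59). The number of cells with Apoe was similar, and the difference lay in the UMIs per cell. It was also higher in Ly6c2+ barcodes (1.83), lay at 1.99 in Mpo-negative cells, and was lower in Mpo-high cells, where it had 52 and 2 UMIs. Apoc2 had a log2 ratio of 2.30 (1.75 to 2.89), with a UMI in 14.6% and 51.8% of the cells. The transcription factor gene Maf had 2.33 (1.74 to 2.96), with 19.1% and 48.2%. Pla2g7, a phospholipase gene, had 2.04 (1.75 to 2.35) and Lrp1, a lipoprotein receptor gene, 1.72 (1.27 to 2.19).

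Lmna, the lamin A gene, went from 7 UMIs in 4 PEP-WT cells to 98 UMIs in 31 PEP-619WW cells, or 3.92 on the log2 scale (2.82 to 5.27). It was 1.91 without the exclusions of Cd3e, Cd79a and Mzb1 and 2.06 with stricter ones, below Apoe in both cases (2.35 and 2.60). Its log2 ratio was 3.15 in Mpo-negative cells, 0.54 in Ly6c2+ barcodes and -0.11 in all other barcodes. Tppp3, a tubulin-binding protein gene, was at 12.2 and 83.2 CPM, with a UMI in 13.5% and 41.0% of the cells, and its log2 ratio of 2.77 (2.06 to 3.55) stood against -0.07 in Ly6c2+ barcodes. Cd38, which encodes an NAD-degrading enzyme, had 2.19 (1.56 to 2.87) with a UMI in 16.9% and 54.2% of the cells. Ccl6 had 2.11 (1.87 to 2.37) and Ifitm6, of the interferon-induced transmembrane family, 1.78 (1.47 to 2.09). Hmox1, which encodes heme oxygenase 1, had 2.49 (2.00 to 3.01), but 70.1% of its PEP-619WW UMIs came from 1 cell, and for Thbs1, the thrombospondin 1 gene, at 2.49 (1.84 to 3.20), 37.5% did. With a sum of at least 3 or at least 10 UMIs in the rule, Hmox1 was at 0.94 and 0.61, below 2-fold in both.

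Toward PEP-WT, 3 of the 12 genes are genes of basophils and mast cells. Cpa3 (158 and 1 UMIs), Mcpt8 (783 and 10) and Hdc, the histidine decarboxylase gene (129 and 16), had log2 ratios of -7.20, -6.18 and -2.90. Of the PEP-WT Mcpt8 UMIs, 768 came from the 6 cells set apart above. Hdc was not confined to these cells, with 45 of its PEP-WT UMIs in Mpo-high and 31 in Mpo-negative cells. Its log2 ratios there were -1.85 and -3.11. Without the exclusions of Cd3e, Cd79a and Mzb1 the log2 ratios of Cpa3, Mcpt8 and Hdc were -0.78, -0.63 and -1.81, so that the first pair did not reach 2-fold. Sox4 had a log2 ratio of -2.78 (-3.79 to -1.91), with a UMI in 34.8% and 7.23% of the cells, and was at -1.53 within Mpo-high cells. Nedd4, a ubiquitin ligase gene, was at -2.92 and Ctla2a, a cathepsin inhibitor gene, at -2.50, with -1.66 and -2.10 within Mpo-high cells, and -1.19 and -0.63 without exclusions. In PEP-WT Mpo-high cells Nedd4 was at 249 CPM with little Ly6c2 and at 7.49 CPM with more, and Ctla2a at 232 and 25.0 CPM. In those of PEP-619WW Nedd4 was at 85.4 and 15.6 CPM, and Ctla2a at 42.7 (11.6 to 109) and 18.8 CPM (6.88 to 40.8), the latter with overlapping intervals. The PEP-619WW cells with little Ly6c2 numbered 3. Bex6 was at -1.97, and at -1.40 in Ly6c2+ barcodes. Cd63, a gene of granule membranes, was at -2.70 over all cells, at -0.43 within Mpo-high cells and at -0.48 within Mpo-negative cells (5 and 6 UMIs). The intervals within both subsets held both signs. Of its 273 PEP-WT UMIs, 63 were in Mpo-high and 5 in Mpo-negative cells, so that most lay in cells outside these subsets. Isg20, an interferon-induced exonuclease gene, was at -1.99 (-2.75 to -1.29), at -2.53 within Mpo-high cells, at -1.33 within Mpo-negative cells and at -0.39 without exclusions. G0s2 (-2.56), Il1b (-1.88) and the platelet factor 4 gene Pf4 (-1.93) had a UMI in 13, 9 and 24 PEP-WT cells. Of their PEP-WT UMIs, 40.0%, 33.2% and 21.5% were in 1 cell. With a sum of at least 3 UMIs in the rule, G0s2 was at -0.42 and Il1b at -0.60, below 2-fold, and Pf4 at -2.33.

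Within the Mpo-negative cells 0 of 8 monocyte-branch genes passed 2-fold. The genes named next were chosen after their values had been seen. Cd44, the hyaluronan receptor gene, was at 187 and 435 CPM, with a UMI in 30 of 37 and 56 of 59 cells (log2 ratio 1.22). Cd44 was also higher in Mpo-high cells (1.03, with 45 and 59 UMIs), and was at 0.17 in Ly6c2+ barcodes. Itga4, the integrin alpha 4 gene, was at 179 and 392.2 CPM (log2 ratio 1.13), and at -0.19 in Mpo-high cells. Fn1 was at 572 and 1206 CPM (1.08), and Lair1, an inhibitory collagen receptor gene, had 43 and 178 UMIs (1.31). These differences were spread over cells, since no cell held more than 12% of the UMIs of Cd44, Itga4, Fn1 or Lair1 in either library. Of the 8 homing genes in the list, 2 were at least 2-fold higher in Mpo-negative cells of PEP-619WW and 0 lower, with a median of 0.26 against -0.03 for all genes tested, of which 1.61% were at least 2-fold higher.

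The genes at least 2-fold lower in Mpo-negative cells of PEP-619WW included many of the cell cycle. Cdk1, the mitotic kinase gene, had 75 UMIs in 21 of 37 PEP-WT cells and 41 UMIs in 11 of 59 PEP-619WW cells, a log2 ratio of -1.61. Ube2c, Birc5 and Nusap1, genes of mitotic exit and the spindle, were at -1.56, -1.05 and -1.07, the replication helicase genes Mcm3 and Mcm7 at -1.23 and -1.26, and Stmn1 at -1.03. Of 8 G2/M genes tested, 4 were at least 2-fold lower, with a median of -0.94, and of 7 S-phase genes 2 were, with a median of -0.70, against -0.03 for all genes tested, of which 1.32% were at least 2-fold lower. In Mpo-high cells the medians were 0.56 for 9 G2/M genes and 0.06 for 12 S-phase genes, and 0 of either passed 2-fold. Over all selected cells 1 gene of each list, Cdc20 (-1.07) and Mcm4 (-1.02), passed 2-fold toward PEP-WT, against 1.19% of all genes tested. The medians were -0.29 for 16 G2/M genes and -0.62 for 14 S-phase genes. In Ly6c2+ barcodes they were -0.14 and -0.22, and in all other barcodes -0.07 and -0.06. Other members of the lists did not differ beyond counting error in Mpo-negative cells, such as Ccnb2 at -0.27 (-0.81 to 0.27) and Mcm6 at -0.40 (-0.89 to 0.10).

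The medians of interferon-stimulated genes were taken over different numbers of genes over all cells and within the subsets. Summed over the same 23 type I interferon-stimulated genes, the levels were 5890 CPM in PEP-WT and 5930 CPM in PEP-619WW over all selected cells. They were 3762 and 2459 CPM in Mpo-high cells, and 9578 and 7848 CPM in Mpo-negative cells. Mpo-negative cells made up 41.6% of the selected cells in PEP-WT and 71.1% in PEP-619WW. Over all selected cells the median log2 ratio of 20 type I interferon-stimulated genes was 0.10. Of these 1, Isg20, passed 2-fold toward PEP-WT, against 1.19% of all genes tested. Within the Mpo-high cells the median was -0.75 over 5 genes, 2 of which were at least 2-fold lower in PEP-619WW, against 0.732% of all genes. Within the Mpo-negative cells the median was -0.37 over 15 genes, 1 of which was at least 2-fold lower, against 1.32% of all genes. In Ly6c2+ barcodes and in all other barcodes the medians were -0.70 and -0.75. Isg15, which encodes a ubiquitin-like protein, had 113 UMIs in 25 of 31 PEP-WT Mpo-high cells and 13 UMIs in 4 of 13 PEP-619WW Mpo-high cells, a log2 ratio of -2.48. In Mpo-negative cells Isg15 was at -1.11, with 28.3% of the PEP-WT UMIs in 1 cell, and in Ly6c2+ barcodes at -1.33. For interferon gamma-induced genes the medians were 0.11 over all cells (19 genes), -0.25 within Mpo-high cells (13 genes) and -0.04 within Mpo-negative cells (17 genes), with 0 genes past 2-fold in each.

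**Figure D4:**
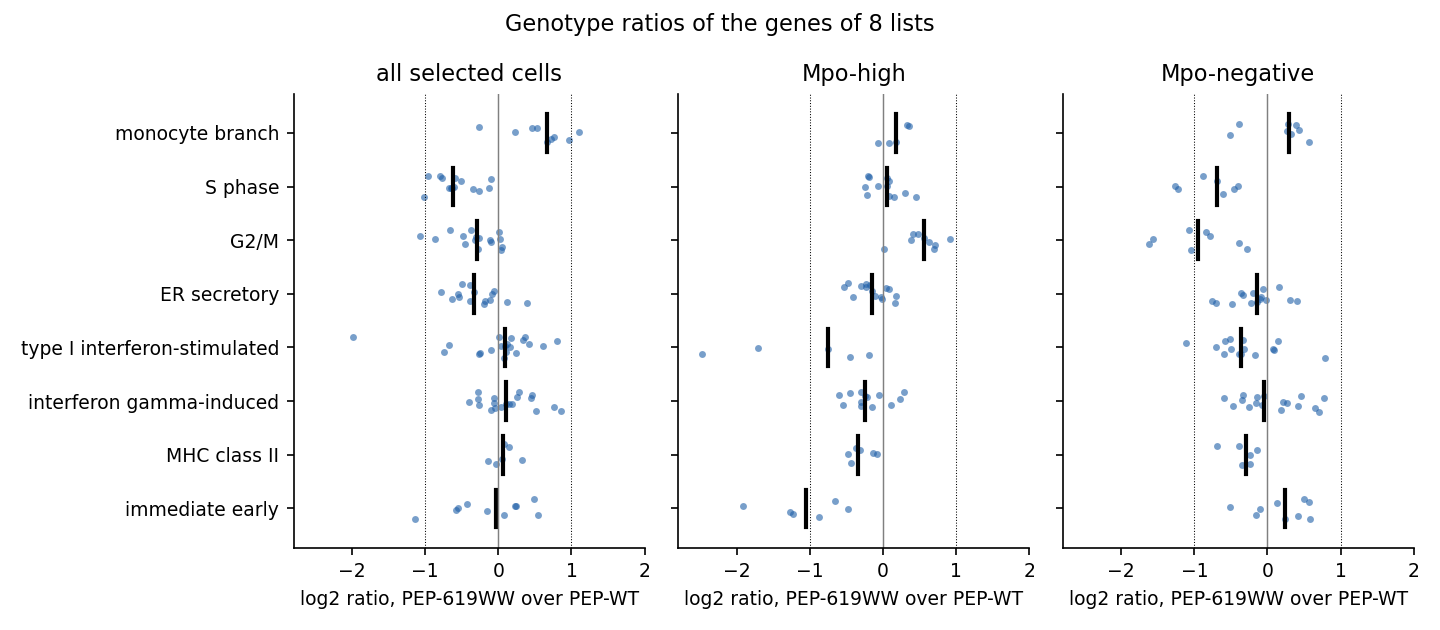
Log2 ratio of PEP-619WW over PEP-WT for each gene with at least 100 UMIs of 8 lists, over all selected cells, Mpo-high cells and Mpo-negative cells; 1 point is 1 gene, black bars are list medians and dotted lines mark 2-fold. G2/M genes have a median of 0.56 in Mpo-high and -0.94 in Mpo-negative cells, and the type I interferon-stimulated genes, of which different numbers were tested, have medians of 0.10 over all, -0.75 in Mpo-high and -0.37 in Mpo-negative cells.

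The 9 monocyte-branch genes had a median of 0.67 over all selected cells, where 1, the fractalkine receptor gene Cx3cr1 (1.11), passed 2-fold, 0.17 over 5 genes in Mpo-high cells and 0.30 over 8 genes in Mpo-negative cells. The 7 primary granule genes that the rule did not use had a median of -0.56 over all cells, and 6 of them 0.06 within Mpo-high cells. The 15 genes of endoplasmic reticulum folding and secretion had medians of -0.33, -0.15 and -0.14, and the 6 MHC class II genes 0.07, -0.34 and -0.30, in all, Mpo-high and Mpo-negative cells, with 0 past 2-fold. Of the immediate early genes, which respond to stimulation and to handling of cells, 3 of 6 were at least 2-fold lower in PEP-619WW Mpo-high cells, against 0.732% of all genes tested, with a median of -1.05 (Jun at -1.91), whereas the median was 0.24 over 9 genes in Mpo-negative cells and -0.04 over 10 genes in all cells, where Fosb (-1.13) passed. Of the PEP-619WW Jun UMIs in Mpo-high cells, 48.3% came from 1 cell. The S100a8 and S100a9 ratios of Mpo-high cells, -1.43 and -1.68, also rested on single cells, which held 80.8% and 91.4% of the PEP-WT UMIs. Lyz2 (1.13), S100a4 (1.68) and S100a6 (1.62) were higher in PEP-619WW Mpo-high cells, with a UMI in 11, 10 and 10 of the 13 cells, but 1 cell held 40.1%, 30.6% and 36.4% of their PEP-619WW UMIs and 1 cell 32.4%, 42.9% and 45.5% of their PEP-WT UMIs. Over all cells the 13 glycolysis genes had a median of 0.06, the 6 genes around PEP and the Src kinases 0.39 and the 5 neutrophil-branch genes -0.21, with 0 past 2-fold. Of 3 stem and early progenitor genes tested 1, Sox4, passed (median -0.96). Of 6 secondary granule genes Mmp8 passed toward PEP-619WW (1.03) and Camp toward PEP-WT (-1.51), and of 5 mature neutrophil genes Il1b and Retnlg (-2.83) passed toward PEP-WT, with 44.9% and 61.6% of the PEP-WT UMIs of Camp and Retnlg in 1 cell. The mature neutrophil median was -1.56 over 2 genes in Mpo-high cells and -1.65 over 4 genes in Mpo-negative cells, with 2 genes at least 2-fold lower in each. Among all genes tested, 2.02% passed toward PEP-619WW and 1.19% toward PEP-WT over all selected cells. Toward PEP-WT, 0.732% passed within Mpo-high and 1.32% within Mpo-negative cells. The list counts above rest on few genes each.

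Genes of emergency granulopoiesis signaling showed no ratio of 2-fold or more among the 10 tested over all selected cells, with a median of 0.23. The levels of Csf3r, the receptor gene of granulocyte colony-stimulating factor, were 41.8 CPM (32.2 to 53.3) and 30.5 CPM (22.2 to 41.0), with a UMI in 43.8% and 36.1% of the cells. Csf2ra, a receptor chain for GM-CSF, was at 168 CPM (148 to 189) and 236 CPM (212 to 263), and the shared chain gene Csf2rb at 134 and 119 CPM. Cebpb, the C/EBP factor linked to emergency granulopoiesis, was at 411 CPM (380.2 to 445) and 511 CPM (475 to 549) over all cells. Cebpb followed the subsets, with 184 and 251 CPM in Mpo-high cells and 718 and 657 CPM in Mpo-negative cells. Myc had the opposite order, with 130.0 and 145 CPM in Mpo-high cells and 32.7 and 11.5 CPM in Mpo-negative cells. The interleukin 6 receptor gene Il6ra was at 46.3 and 73.5 CPM over all cells, and at 88.5 and 92.0 CPM in Mpo-negative cells. Ptpn22 itself had 32 UMIs in 26 PEP-WT cells, or 20.6 CPM (14.1 to 29.0), and 44 UMIs in 28 cells of PEP-619WW, or 30.5 CPM (22.2 to 41.0), with overlapping intervals, and it was higher in Ly6c2+ barcodes, at 90.2 and 66.2 CPM.

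Dividing cells, taken as those with at least 2 UMIs of the proliferation genes Mki67 and Top2a, made up 65 of 89 selected PEP-WT cells (73.0%, 62.6 to 81.9%) and 36 of 83 PEP-619WW cells (43.4%, 32.5 to 54.7%), a difference of -29.7 points (-42.6 to -14.98). At 2000 UMIs per cell the shares were 38.6% and 17.3%, with a difference of -21.4 points (-33.8 to -7.81). Within Mpo-high cells 26 of 31 and 13 of 13 were dividing (83.9% and 100%), and at 2000 UMIs 32.3% and 46.2%, with a difference of 13.9 points (-15.02 to 42.1). Within Mpo-negative cells 21 of 37 and 16 of 59 were (56.8% and 27.1%), and at 2000 UMIs 32.4% and 10.2%, with a difference of -22.3 points (-39.3 to -5.84). At equal depth the share was thus lower in the PEP-619WW library among Mpo-negative cells, with an interval that held only negative values. In Mpo-high cells the interval held both signs. These intervals cover counting error only, and with 1 library per genotype no number of cells can show a difference between genotypes. In B cells and Ly6c2+ barcodes the share of dividing cells by the same count was 2.42% and 2.78%, and 7.99% and 10.7%, at lower depth.

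Cells with at least 1 UMI of Kit, Cd34 or Flt3 made up 37.1% of the selected PEP-WT cells (27.1 to 48.0%) and 20.5% of the PEP-619WW cells (12.4 to 30.8%), a difference of -16.6 points (-29.3 to -3.02), and at 2000 UMIs 15.9% and 6.17%, a difference of -9.74 points (-19.4 to -0.0304). Within Mpo-high cells they were 22 of 31 and 11 of 13, with a difference of 13.6 points (-16.2 to 34.4) that turned to -13.6 points (-34.4 to 16.2) at 2000 UMIs, and within Mpo-negative cells 6 of 37 and 6 of 59, with a difference of -6.05 points (-21.9 to 7.35). The intervals held both signs in either subset, and with 1 library per genotype they cover counting error only. At least 3 UMIs of the monocyte genes Irf8, Csf1r, Ly86, F13a1 and Ccr2 were found in 79.8% and 89.2% of the selected cells, and in 97.3% and 96.6% of Mpo-negative cells. By the same count 43.6% of PEP-WT and 48.7% of PEP-619WW B cells passed, since B cells also transcribe some of these genes, so it does not separate monocytes from all other cells. The monocyte and dividing counts were met together by 52 PEP-WT and 32 PEP-619WW cells, and 2 and 4 cells met none of the 4 counts.

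**Figure D5:**
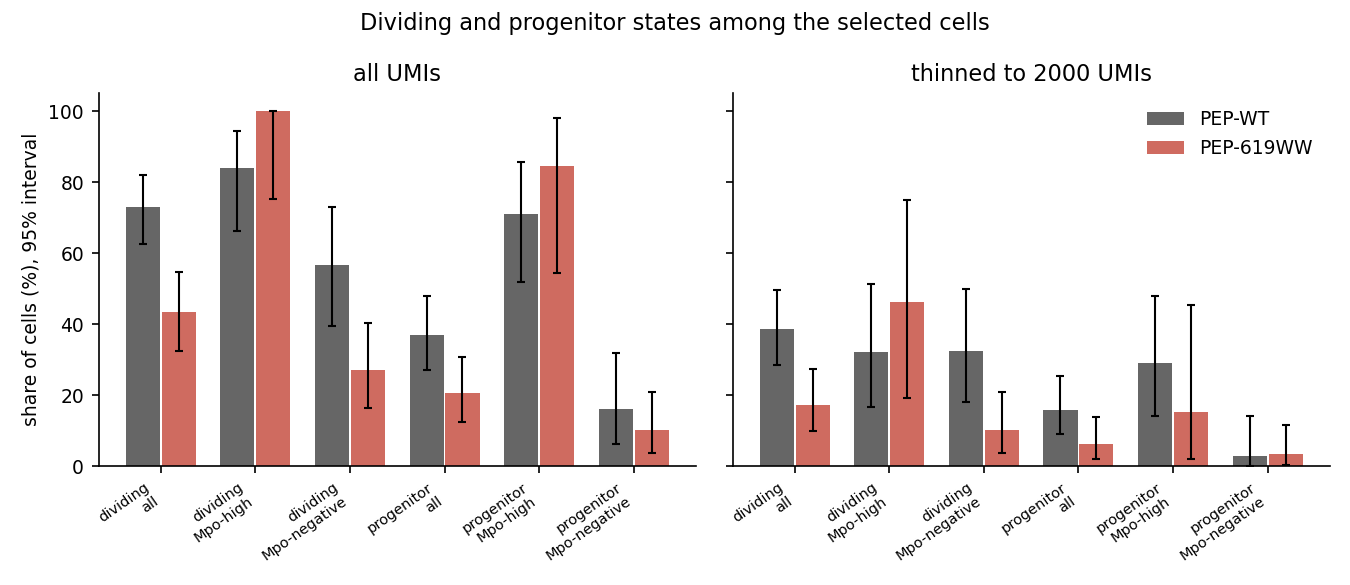
Share of dividing cells and of cells with a UMI of Kit, Cd34 or Flt3 (progenitor) among all selected, Mpo-high and Mpo-negative cells of each library, with all UMIs (left) and thinned to 2000 UMIs per cell (right); bars are shares in percent and whiskers 95% binomial intervals. Among Mpo-negative cells thinned to 2000 UMIs, the dividing share is 32.4% for PEP-WT and 10.2% for PEP-619WW.

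The selected cells were also set beside the cells most like them under the same exclusions. The Ly6c2+ barcodes numbered 914 and 513 and had Ctsg at 13.3 and 4.58 CPM, Ms4a3 at 3.53 and 2.47 CPM, and Cd34 at 0.208 and 1.06 CPM. A further 434 and 280 barcodes had at least 20 UMIs of S100a8 and S100a9 but few secondary granule transcripts. They had Ctsg at 2.49 and 3.31 CPM and Ms4a3 at 3.74 CPM and 0 CPM. These are not named as mature neutrophils, because 22.4% and 12.1% of them met the monocyte count given above, against 5.22% and 2.75% of immature neutrophils. MHC class II genes summed to 6351 and 4865 CPM in them, and to 1483 and 1098 CPM in immature neutrophils. Immature neutrophils had Ctsg at 0 and 0.815 CPM and Ms4a3 at 39.7 and 10.6 CPM. The Mpo-negative selected cells lay in between, with Ctsg at 77.0 and 123 CPM and Ms4a3 at 117 and 87.4 CPM, and the Mpo-high cells far above, with 2862 and 3186 CPM of Ctsg. Lyz2, which chose neither, was at 9832 and 13701.5 CPM in the Mpo-negative cells and at 10465 and 9390 CPM in the Ly6c2+ barcodes. Their share of dividing cells at 2000 UMIs was 32.4% in PEP-WT and 10.2% in PEP-619WW, and that of Ly6c2+ barcodes, with all UMIs at median depths of 4370 and 3718, was 7.99% and 10.7%. The depths differ, so no order is read from these shares.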

How the data were processed

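Cells described as splenocytes were profiled with the 10x Genomics 3' assay, and the authors used Cell Ranger (6.0.0 in the submitters' processing notes, another version in the study's methods) with mm10. The deposited values are raw UMI counts for 32285 genes, 32158 of which matched a symbol. Each genotype has 2 deposited runs, whose relation was not stated. The study's methods give the cell numbers of the second, so that the description of run 1 is assumed. Run 1 was used because the rule names it (14821 and 8576 barcodes, 77916082 and 56745578 UMIs, medians of 2832 and 3293 UMIs), and run 2 served as an alternative, not as a replicate. The genotypes shared 39 barcodes in run 1, none among the selected cells. All deposited barcodes were kept. No doublet caller was run, and stricter exclusions were an alternative.

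The members, gene lists and contrasts were chosen with earlier results of these data known, and the subsets by Mpo and Ly6c2 after the values here had been seen. CPM are UMIs per 1000000 UMIs, summed over the cells of a group. Ratios of CPM have exact conditional binomial intervals, shares exact Clopper-Pearson intervals and differences of shares Newcombe intervals, all at 95% and for counting error only. Genes with at least 100 UMIs in both libraries together were counted at a ratio of 2-fold or more. Named were the 12 genes with the largest ratio in each direction with a UMI in at least 10% of the cells of the higher library (15 in each direction between Mpo subsets), without immunoglobulin, hemoglobin and mitochondrial genes, and 278 genes of 27 lists, 1 of which was not matched. The comparison of Mpo subsets, and the other genes named within subsets, were chosen after their values had been seen. The 16 planned and 4 added alternatives changed the rule, the depth, the minimum of UMIs, the fold, the weight of cells or the subset. Thinning drew UMIs without replacement to 1000 per barcode or 2000 per cell. On simulated counts of 4104 genes for the comparison of all members by genotype, with 200 genes changed, the direction was right for 99.5% of these 200, and 95.7% of intervals held the true ratio. The simulated counts had Poisson error only and no difference between cells. They check the calculation, and cannot show that the intervals hold for genes whose UMIs lie in few cells. Software was Python (3.11.15) with numpy (2.4.6), scipy (1.17.1), pandas (2.3.3) and matplotlib (3.10.9).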

Additional observations from a re-analysis of the deposited data

Results flagged for a closer look

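In the second deposited run, which served only as an alternative for the share of selected cells, the same rule selected 11 of the 9539 barcodes in PEP-WT and 2 of the 11029 in PEP-619WW. Each had Prtn3, the highest sums of Mpo, Elane and Prtn3 were 11 and 6 UMIs, and 0 of the 13 had a UMI of Mpo, Ctsg or Ly6c2. They are listed because a signal was present in data outside the main comparisons.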

How the results depend on the processing

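With 1 library per genotype, replicates cannot be left out, and no paired analysis was possible because each group holds 1 library, fewer than 2 numbers are shared and no test was made. The difference in the share of selected cells (0.367 percentage points) was 0.0874 with a sum of at least 10 UMIs, 0.124 with a stricter exclusion of lymphoid genes and 0.943 without exclusions, and it reversed to -0.0169 with 1000 UMIs per barcode and to -0.0972 in run 2. The counts of genes past 2-fold (83 toward PEP-619WW, 49 toward PEP-WT) were 160 and 123 with a minimum of 50 UMIs, 44 and 17 with 200, and 1733 and 2100 with none. They were 331 and 292 at 1.5-fold, 6 and 12 in Mpo-high cells and 33 and 27 in Mpo-negative cells. With equal weight for each cell they were 82 and 132, and toward PEP-WT the count was 31 without the cells with basophil, eosinophil or secondary granule genes.

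The type I interferon-stimulated median (0.10) was -0.11 with a sum of at least 3 UMIs, -0.24 without exclusions, -0.75 in Mpo-high cells and -0.37 in Mpo-negative cells, and the interferon gamma-induced median (0.11) was -0.16 without exclusions and -0.25 in Mpo-high cells. The stem and early progenitor median (-0.96) was -0.52 with a sum of at least 10 UMIs, -0.74 without Mpo in the rule, -0.78 with the deeper library thinned, -1.54 with equal weight of cells, -1.11, -0.54 and -1.24 with a minimum of 50, 200 or 0 UMIs, -0.76 without the cells named above and -0.18 in Mpo-high cells. The primary granule median (-0.56) was -0.83 with the stricter exclusion and -1.08 with equal weight of cells, which also moved the S-phase median (-0.62) to -0.96 and the G2/M median (-0.29) to -0.64. In Mpo-high cells the S-phase median reversed to 0.056, the G2/M median was 0.56 and the monocyte-branch median 0.17, and in Mpo-negative cells the G2/M median was -0.94. The MHC class II median (0.07) was -0.34 in Mpo-high and -0.30 in Mpo-negative cells, and the median of endoplasmic reticulum genes (-0.33) was -0.062 without exclusions. Of 304 values of single genes under the alternatives, 8 reversed, all in Mpo-high cells. Apoe was there at -4.06 (52 and 2 UMIs in PEP-WT and PEP-619WW). Maf and Apoc2 were at -1.36 (4 and 1 UMIs each), Pla2g7 at -0.55 (16 and 7) and Mcpt8 at 0.058 (15 and 10). G0s2, Pf4 and Il1b were at 0.64, with equal counts in the libraries (4, 6 and 5 UMIs in each). Apart from Apoe, the intervals of these genes held both signs, so that only Apoe reversed beyond counting error. A further 77 values lay outside the counting interval of the value reported. Of these 15 were without exclusions, where Cpa3 was at -0.78, Mcpt8 at -0.63, Ctla2a at -0.63, Isg20 at -0.39, Nedd4 at -1.19 and Lmna at 1.91, and 11 with the stricter exclusion, where Lmna was at 2.06 and Mcpt8 at -3.56. The runs without exclusions, without those cells and within Mpo subsets were chosen after the data had been seen. The causes of these changes were not tested. The differences in dividing cells (-31.2 to -20.4 points) and in cells with Kit, Cd34 or Flt3 (-25.3 to -9.74 points) kept their sign in 8 of 8 alternatives over all selected cells, but within Mpo-high cells they were 16.1 and 13.6 points.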
